A study of Mus musculus with 3 samples.

Results

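The mouse genes Nts, Sult1e1, Zpld1, Npy, Lyve1 and Nupr1 are 6 of the 24958 genes in a single-cell RNA sequencing (scRNA-seq) table of the ovary. The table holds 31776 cells from 3 libraries, 1 each at 0, 1 and 6 h after an injection of human chorionic gonadotropin (hCG), the agent used in place of luteinizing hormone (LH) to trigger ovulation. The methods of the study give the Kunming strain for mouse work other than knockouts, and an age of 21 days and an earlier injection of pregnant mare serum gonadotropin, an agent with follicle-stimulating action, for the ovaries sequenced. An age at 1 h and 6 h after hCG, and the number of pooled animals, are not given in the sources used here. The cell barcodes end in 1, 2 or 3, and no source ties an ending to a time point, so the cells are described as barcode set 1 (10384 cells), set 2 (9917 cells) and set 3 (11475 cells), and a difference between sets is not called a difference between times.

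The genes were chosen by their levels in clusters of granulosa cells (GCs) of set 3, which they were taken to lead. Their levels in those clusters, and what follows from these levels across sets and classes, are a description without a test. Each set was taken to be 1 library, since there are 3 endings and 3 libraries, although no source states this. On that reading nothing below has a replicate, and every interval is a 95% interval that covers counting error only. A level is the number of unique molecular identifiers (UMIs, counted RNA molecules) that a gene has among 10000 UMIs of a cell, averaged over cells. The label did not hold for all 6 genes. Npy, Lyve1, Nts and Sult1e1 were among the 10 genes of largest fold in cluster 1 of set 3, and Nupr1 in cluster 16 of set 3. Zpld1 was among the 10 leading genes of cluster 3 of set 1 and of cluster 7 of set 2 and of no GC cluster of set 3.

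The 3 sets held 81367055, 72906577 and 85756955 UMIs, with medians of 6093, 6352 and 6524 UMIs per cell. Cells were grouped within each set into 63 clusters, with the 6 genes left out of the clustering, and 23 clusters were called granulosa-like from their markers. These held 4580 cells of set 1 (44.1%), 4756 of set 2 (48.0%) and 5278 of set 3 (46.0%). In cluster 1 of set 3, which carries much of what follows, 8 of the 15 GC markers passed the naming rule, with Inha (inhibin alpha) at 47.4 and Serpine2 at 14.2 UMIs per 10000, while Cyp19a1 (aromatase) was at 0.0577 and Gatm at 0.0132. The steroidogenic and luteal markers Cyp11a1, Star and Sfrp4 stood there at 16.3, 16.4 and 16.8, and the theca-defining Cyp17a1 and Insl3 at 0.0823 and 0.00123. A further 4 clusters with 902 cells stayed unnamed. A total of 112 barcode sequences occurred in more than 1 set (224 cells), and the counts of genes called in granulosa-like cells were the same without them. The granulosa-like class as a whole was not compared with that of set 2, because cluster 3 of set 2 had 1 luteal marker (Ptgfr) and no GC marker among its 10 leading genes. That cluster met the naming rule with 11 of the 15 GC markers and stays in the class, and it is referred to by number without a subtype. Class levels and shares of set 2 are printed for description, and its granulosa-like class is not compared with that of another set. Where that class is set beside other cells of set 2, it includes cluster 3. In set 1 the class consisted of clusters 2, 3, 7, 8, 9, 10, 13 and 15, and in set 3 of clusters 1, 5, 7, 8, 9, 10 and 16.

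GCs line the follicle, make estradiol from androgens and respond to the LH surge by changing from estrogen producers into cells that feed ovulation and then form the corpus luteum. Mural GCs line the follicle wall, and cumulus GCs surround the oocyte and secrete a hyaluronan-rich matrix at ovulation. Nts encodes the precursor of neurotensin and neuromedin N, peptides that are secreted and act on G protein-coupled receptors. Npy encodes neuropeptide Y, best known from neurons and sympathetic nerves. Sult1e1 encodes estrogen sulfotransferase, which transfers sulfate from PAPS to estrogens and thereby stops them from binding their receptors. Zpld1 encodes a membrane protein with a zona pellucida domain, the module with which extracellular proteins polymerize. Lyve1 encodes a hyaluronan receptor of lymphatic endothelium and of some resident macrophages. Nupr1 encodes a small nuclear protein that cells induce under stress, downstream of the transcription factor ATF4.

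By GENCODE on GRCm38 all 6 are protein coding. Nts lies at chr10:102481756-102490486, Sult1e1 at chr5:87575969-87591594, Zpld1 at chr16:55225175-55297986, Lyve1 at chr7:110850607-110863239 and Nupr1 at chr7:126623249-126630861, all on the minus strand, and Npy at chr6:49822710-49829507 on the plus strand. RefSeq promoters (GRCm38) were matched for Nts, Sult1e1, Zpld1, Npy and Nupr1. The 250 bases before the start were searched on both strands for 5 motifs of factors that act downstream of LH, cyclic AMP or stress. The cyclic AMP element TGACGTCA was in 1.62% of 27025 promoters and in none of the 5 genes, and its core TGACG, which it contains, in 17.9% of all and in that of Nts. The AP-1 motif TGANTCA was in 6.87% of all promoters and in those of Nts and Zpld1. The NR5A motif AAGGTCA was in 4.05% of all and in that of Sult1e1, and the C/EBP-ATF composite TGATGNAA in 3.53% of all and in those of Nts, Sult1e1, Zpld1 and Nupr1. The stretches that hold these matches are shown because 4 of the genes share the composite. They are minus-strand sequences written toward the start site, with the matches, which do not overlap here, in capitals. The Nts, Zpld1 and Nupr1 starts of RefSeq lie inside the GENCODE genes. A match is a string of letters and not a bound site.
Nts, chr10:102490419-102490625: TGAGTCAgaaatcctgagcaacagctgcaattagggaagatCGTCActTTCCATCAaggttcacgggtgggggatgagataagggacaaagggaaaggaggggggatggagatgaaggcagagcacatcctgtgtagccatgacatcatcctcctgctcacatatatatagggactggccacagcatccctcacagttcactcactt
Sult1e1, chr5:87591612-87591761: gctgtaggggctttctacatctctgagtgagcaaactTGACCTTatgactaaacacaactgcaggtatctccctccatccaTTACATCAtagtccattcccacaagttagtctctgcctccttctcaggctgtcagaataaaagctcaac
Zpld1, chr16:55283238-55283422: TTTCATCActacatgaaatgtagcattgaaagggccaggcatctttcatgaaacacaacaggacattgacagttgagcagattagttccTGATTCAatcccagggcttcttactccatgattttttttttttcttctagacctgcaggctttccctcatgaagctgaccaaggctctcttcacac
Nupr1, chr7:126625471-126625620: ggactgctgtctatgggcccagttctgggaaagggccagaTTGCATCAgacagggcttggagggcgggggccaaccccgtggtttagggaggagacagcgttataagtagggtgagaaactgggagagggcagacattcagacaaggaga

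The secreted peptide genes came first. All of set 1 held 52 Nts UMIs, set 2 held 7914 and set 3 held 122574. Not 1 of the 52 was in a granulosa-like cell, whereas 89.0% of those of set 3 were. Within set 2 the share was 94.3%, cluster 3 included. The granulosa-like level was 0 in set 1, where 3 UMIs would give 0.000885, 2.07 (2.02 to 2.11) in set 2 and 27.1 (26.9 to 27.3) in set 3. Nts was thus undetected in GCs of set 1. With set 1 put at 3 UMIs, its level in GCs of set 3 was 30618-fold higher, a value that depends on how cells were called. Per-cell gates gave 20850-fold. Clusters at resolution 0.5 gave 7734-fold, which is not against 3 UMIs, because their set 1 class held Nts UMIs. That class had 4203 cells, kept 90.8% of the 4580 and took in other cells, whose identity was not tested. Over all cells its level in set 3 was 13.2-fold (12.9 to 13.5) that of set 2, and that of set 2 was 190-fold (144 to 254) that of set 1.

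Within set 3 Nts was uneven among GC clusters. It was highest in cluster 1 (2045 cells, led by Npy, Lyve1 and Rnf180) at 55.3 (54.9 to 55.7) and next in the mitotic cluster 8 (613 cells) at 37.8 (37.4 to 38.3). The cumulus cluster 16 (117 cells, led by Ptx3, Grem1 and Spp1) was at 11.0, the second mitotic cluster, 10, at 4.89, cluster 5 (led by Angpt2) at 2.59, and clusters 9 and 7 (preantral, led by Kctd14) at 0.840 and 0.787. Cluster 1 was 1.46-fold (1.44 to 1.48) above cluster 8. In set 2 the same gene was highest in cluster 3 (led by Comp) and the antral mural cluster 7, at 4.80 (4.64 to 4.97) and 4.30 (4.11 to 4.49), followed by the mitotic cluster 11 at 2.86 and cluster 1 (led by Ptges) at 0.953. In both sets the preantral clusters were near the bottom of the order.

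Set 1 held 10 Npy UMIs, set 2 held 3268 and set 3 held 10925, and granulosa-like cells accounted for 93.6% of those of set 3. The granulosa-like levels were 0.00108 (5 UMIs), 0.974 (0.940 to 1.01) and 2.93 (2.87 to 2.99). Set 3 was 2701-fold set 1 (1157 to 8319) in this class, 1723-fold with summed UMIs and 1558-fold over all cells, and over all cells set 3 was 2.81-fold (2.70 to 2.92) set 2. In set 3 Npy was at 6.55 (6.42 to 6.69) in cluster 1, 1.93 in mitotic cluster 8, 1.51 in mitotic cluster 10 and between 0.0467 and 0.113 in the other 4 GC clusters, the cumulus cluster included. In set 2 it was at 2.79 in cluster 3, which was 3.32-fold (3.02 to 3.65) above the next, cluster 1. Npy was thus close to absent from the cumulus cluster, where Sult1e1, Zpld1 and Nupr1 were high.

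Sult1e1, the estrogen sulfotransferase gene, was as uneven between sets as Nts. Set 1 held 2 of its UMIs, set 2 held 4393 and set 3 held 85258, with 94.3% of the last in granulosa-like cells. The granulosa-like levels were 0.000174 (1 UMI), 1.29 (1.25 to 1.33) and 19.0 (18.8 to 19.1). Set against that single UMI, set 3 was 108864-fold higher, with a counting interval of 19538 to 4.3e+06, and 21427-fold higher with set 1 put at 3 UMIs as for Nts. Summed UMIs in place of means over cells gave 67678-fold against the single UMI. Over all cells set 3 was 14.3-fold (13.8 to 14.7) set 2. In set 3 cluster 1 was at 35.1 (34.8 to 35.4), the cumulus cluster at 33.4 (32.4 to 34.5) and mitotic cluster 8 at 31.8 (31.4 to 32.2). These 3 neighbours differed by 1.05-fold each, with lower bounds of 1.02, and the next GC cluster, mitotic cluster 10, was at 4.86. Cluster 3 (led by Comp) was highest in set 2 at 3.51 (3.37 to 3.65), 2.27-fold (2.09 to 2.46) above the antral mural cluster 7 at 1.55. Sult1e1 thus differed from Nts in the cumulus cluster, where there were 0.290 Nts UMIs for each Sult1e1 UMI against 1.36 (1.35 to 1.37) over all granulosa-like cells of set 3.

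Zpld1 was a GC gene in all 3 sets. It had 22539, 25922 and 20592 UMIs, of which 95.8%, 95.4% and 95.9% were in granulosa-like cells. The granulosa-like levels were 6.42 (6.33 to 6.503), 6.34 (6.27 to 6.42) and 4.33 (4.26 to 4.39), so that set 3 was at 0.674 (0.661 to 0.687) of set 1. Among the 6 genes it alone was lower in set 3 than in set 1. In set 1 the highest clusters were 3 (led by Rgs13) at 12.7 (12.4 to 13.01), the antral mural cluster 9 at 12.1 (11.7 to 12.4) and the mitotic cluster 13 at 10.5. The preantral cluster 7 and the atretic cluster 8 were at 0.508 and 0.673. In set 2 the antral mural cluster 7 was at 16.6 (16.2 to 16.9) and the mitotic cluster 11 at 13.2. A cumulus cluster was named in set 3 only and antral mural clusters in sets 1 and 2 only, so these orders hold unlike clusters. In set 3 the cumulus cluster was first at 10.0 (9.46 to 10.6). Mitotic cluster 8 was at 8.29, cluster 1 at 6.41 and the other 4 at 1.94 or below. The preantral clusters were at or below 0.508 in every set.

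Lyve1 was found in different cells in sets 1 and 3. Set 1 held 595 of its UMIs, of which granulosa-like cells accounted for 3.70%, and set 3 held 8578, of which they accounted for 90.4%. Set 2 held 431, with 3.02% in its granulosa-like cells. The granulosa-like levels were 0.00184 (22 UMIs), 0.00273 (13 UMIs) and 2.15 (2.10 to 2.20), and set 3 was 1169-fold (771 to 1866) set 1. This ratio changed with the way cells were called and scaled, and was 28.3 at resolution 0.5, 297 with summed UMIs and 6304 with per-cell gates. At resolution 0.5 the set 1 class had 4203 cells, kept 90.8% of the 4580 and took in other cells. Whether lymphatic endothelial-like cells, at 7.41 for Lyve1 in set 1, were among those was not tested. In sets 1 and 2 the highest class was the lymphatic endothelial-like cluster, at 7.41 and 7.20, and the myeloid-like cells were at 0.580 and 0.431. Set 3 had no lymphatic cluster. Its 9 cells with 3 or more of the 6 lymphatic markers were at 6.22 (4.65 to 8.16), as were the 46 and 35 such cells of sets 1 and 2 at 6.86 and 6.33. Lymphatic markers did not move with Lyve1 in the GCs of set 3. The 4491 granulosa-like cells with none of these markers were at 2.30 (2.24 to 2.35), above the 787 cells with 1 or more at 1.31 (1.23 to 1.40), and 1 cell had 3 or more. The summed level of the 6 resident macrophage markers in granulosa-like cells of set 3 was 0.00469, with 2 of them at 0. Within set 3 Lyve1 was at 4.80 in cluster 1, 1.78 in mitotic cluster 8, 0.642 in mitotic cluster 10 and 0.110 or below in the other 4 GC clusters. Theca-like cells also stood higher in set 3, at 0.386 against 0.00499 in set 1 and 0.00111 in set 2, as did endothelial-like cells, at 0.233 against 0.0112 and 0.00605. The part of free RNA in these levels was not tested.

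In set 3 Nupr1 had the smallest part of its UMIs in GCs among the 6 genes. It had 3325, 8306 and 18302 UMIs, of which 47.8%, 48.1% and 67.0% were in granulosa-like cells. The granulosa-like levels were 0.420 (0.3998 to 0.441), 1.01 (0.976 to 1.04) and 2.41 (2.37 to 2.45), a ratio of 5.74 (5.44 to 6.05) for set 3 over set 1 that was 9.24 with per-cell gates. Smooth muscle-like cells were higher than granulosa-like cells in every set, at 1.63, 3.83 and 3.30. The levels of stroma-like cells were 0.728, 1.40 and 1.47. Within set 3 the cumulus cluster stood far above all others at 27.2, ahead of mitotic cluster 8 at 3.85, and cluster 1, first for Nts, Sult1e1, Npy and Lyve1, was last at 0.782.

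**Figure D1:**
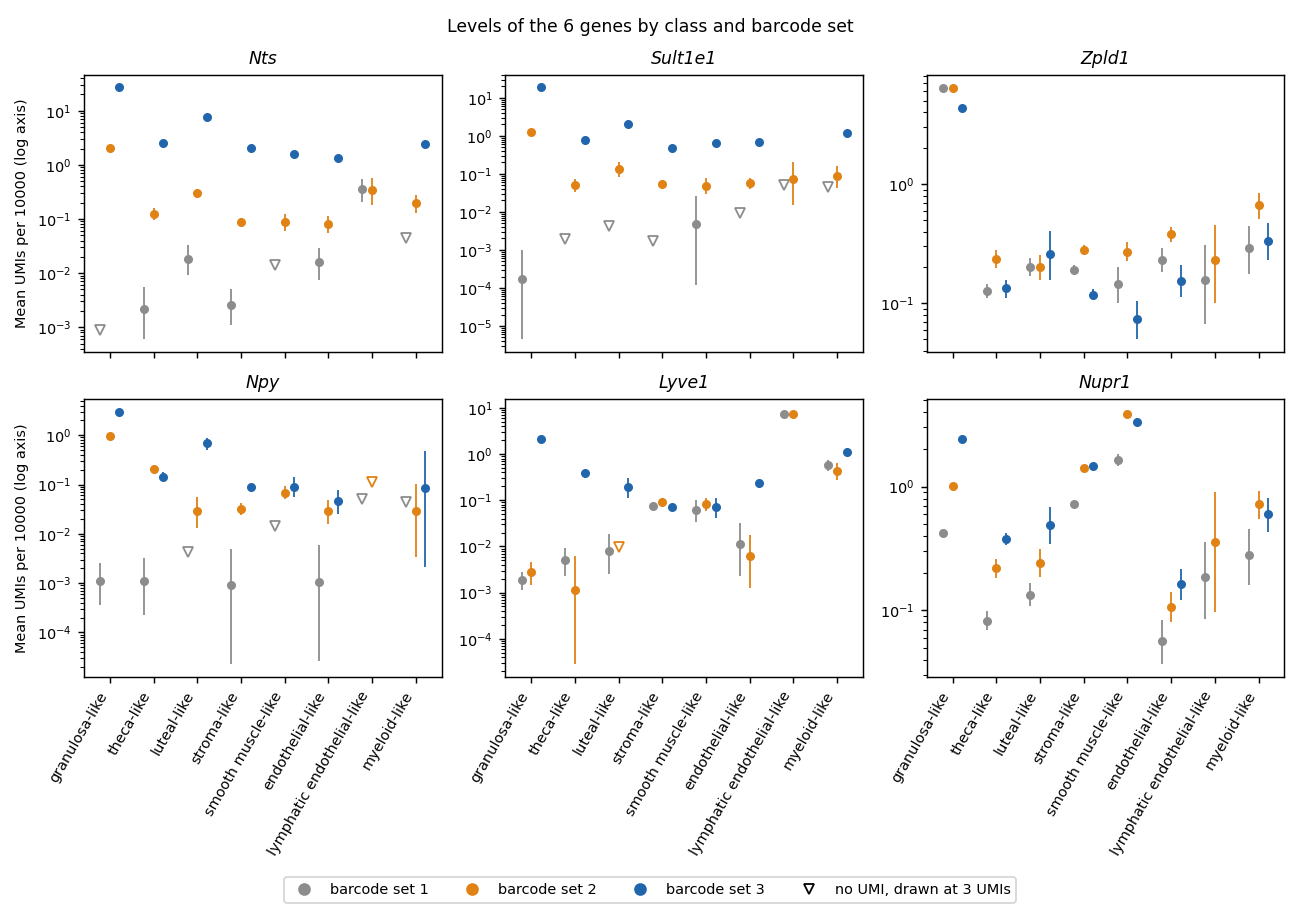
Level of each gene (mean UMIs per 10000, log axis) in 8 marker-named classes, for barcode sets 1 (grey), 2 (orange) and 3 (blue), with 95% counting intervals as bars and open triangles at the level of 3 UMIs where no UMI was found. Nts, Sult1e1 and Npy are higher in set 3 than in set 1 in the granulosa-like class by 3 orders of magnitude or more, Zpld1 is highest in that class in every set, Lyve1 is at 7.41 and 7.20 in lymphatic endothelial-like cells of sets 1 and 2, and Nupr1 is highest in smooth muscle-like cells.

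**Figure D2:**
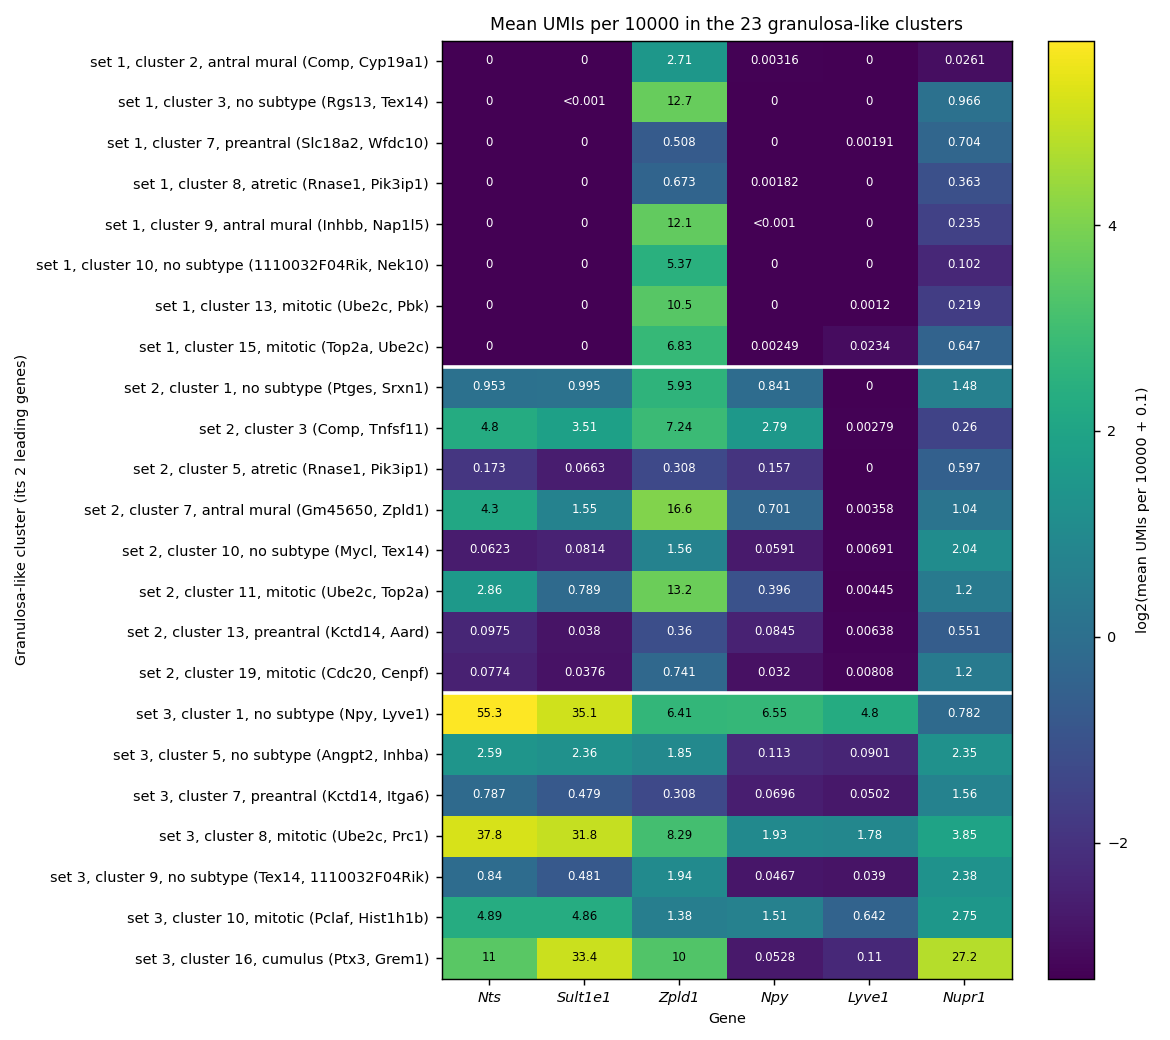
Level of each gene in each of the 23 granulosa-like clusters (rows, named by set, number, subtype where one was given and 2 leading genes). Numbers are mean UMIs per 10000 and colours are log2 of that level plus 0.1. In set 3, Nts, Sult1e1, Npy and Lyve1 are highest in cluster 1 and Nupr1 and Zpld1 in the cumulus cluster 16.

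Set against all genes, 4 of the 6 stood at the top of the comparison of granulosa-like cells of set 3 with those of set 1. With levels under 3 UMIs raised to 3 UMIs, Nts, Sult1e1, Npy and Lyve1 were ranks 1 to 4 of 10559 genes tested by ratio. Nupr1 was rank 229 and Zpld1 rank 8074. The place of Lyve1 depended on the cells compared. Over all cells Sult1e1, Nts and Npy were ranks 1 to 3 of 11002, and Lyve1 was rank 52 at 16.5-fold. At resolution 0.5, where the set 1 class took in other cells, Lyve1 was at 28.3-fold in granulosa-like cells. A ratio of 2 or more was called higher and a ratio of 0.5 or less lower, without a test. By this rule 5 of the 6 genes were higher, all but Zpld1, where 8.03% of all genes tested were higher and 11.1% lower. The median gene was at -0.10 on the log2 scale. Over all cells, 5 of 6 were higher in set 3 than in set 1 (5.54% of all genes higher and 10.1% lower), 4 of 6 in set 3 than in set 2 (9.46% higher and 7.45% lower) and 4 of 6 in set 2 than in set 1 (3.99%). The genes not called were Zpld1 in all 3 comparisons, Nupr1 in set 3 over set 2 with 1.60 (1.56 to 1.64), and Lyve1 in set 2 over set 1 with 0.923 (0.814 to 1.05). These comparisons share their sets, and since the genes were picked for cluster levels in set 3, the counts describe the choice. The comparison of set 2 with set 1 did not use set 3. There Nts, Sult1e1, Npy and Nupr1 were at 190-fold, 2668-fold (against 2 UMIs), 555-fold and 2.48-fold, and Zpld1 at 1.10 (1.08 to 1.12).

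Compared with all other cells of the same set, 5 of the 6 genes were called higher in granulosa-like cells of set 3, where 11.6% of all genes were. The ratios in set 3 were 9.15 for Nts, 15.9 for Sult1e1, 22.2 for Zpld1, 18.1 for Npy, 12.9 for Lyve1 and 1.67 (1.62 to 1.72) for Nupr1. Per-cell gates in place of clusters gave 5.48, 6.86, 13.5, 5.53 and 4.26 for the first 5. With the unnamed clusters left out, Sult1e1 was at 32.4, Zpld1 at 33.7 and Npy at 29.1, and at resolution 2 Npy was at 10.8. With the 3 sets clustered together, 58.3% of the granulosa-like cells of set 3 kept that name. Which clusters the other cells came from is not given here. With this clustering, granulosa-like was the highest class of set 3 for 1 of the 6 genes in place of 5. In set 2, with cluster 3 kept in the granulosa-like class, 4 were called higher (8.8% of all genes). These were Nts at 14.5, Sult1e1 at 16.7, Zpld1 at 13.6 and Npy at 11.4. Lyve1 was called lower there (17.6% of all genes) at 0.0240. In set 1 only Zpld1, Lyve1 and Nupr1 passed the minimum of 0.05 UMIs per 10000. Zpld1 was called higher at 23.9 (8.79% of all genes) and Lyve1 lower at 0.0159 (14.3% of all genes).

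The mean levels hid 2 kinds of distribution over cells. In cluster 1 of set 3, Sult1e1 was spread over nearly all cells, with a median of 28.7, a 90th percentile of 76.3 and 7.19% of cells without a UMI. The 10% of cells with most Sult1e1 held 29.0% of the summed level. Nts in the same cells had a median of 2.61 against a mean of 55.3, 32.7% of cells had none, 30.5% were at 50 or more, and the top 10% of cells held 53.0%. Npy was the most concentrated, with 76.6% of cells without a UMI and 91.5% of the level in the top 10%. Lyve1 was absent from 62.3% of cells, with 67.2% in the top 10%. Zpld1 had a median of 3.05 and was absent from 35.1%.

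The cumulus cluster showed the reverse arrangement for Nupr1. Its median there was 27.5, close to the mean of 27.2, and 2.56% of cells had none, while in cluster 1 76.6% had none. The median of Sult1e1 in the cumulus cluster was 19.97, and that of Nts 0.967, far below its mean of 11.0. Cluster 3 of set 2 showed the same genes in fewer cells, with 83.6% of cells without Nts, 63.5% without Sult1e1 and 97.8% and 67.0% of the 2 levels in the top 10%. Zpld1 was the broadest gene of set 2, with a median of 15.2 and 2.86% of cells without it in cluster 7.

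**Figure D3:**
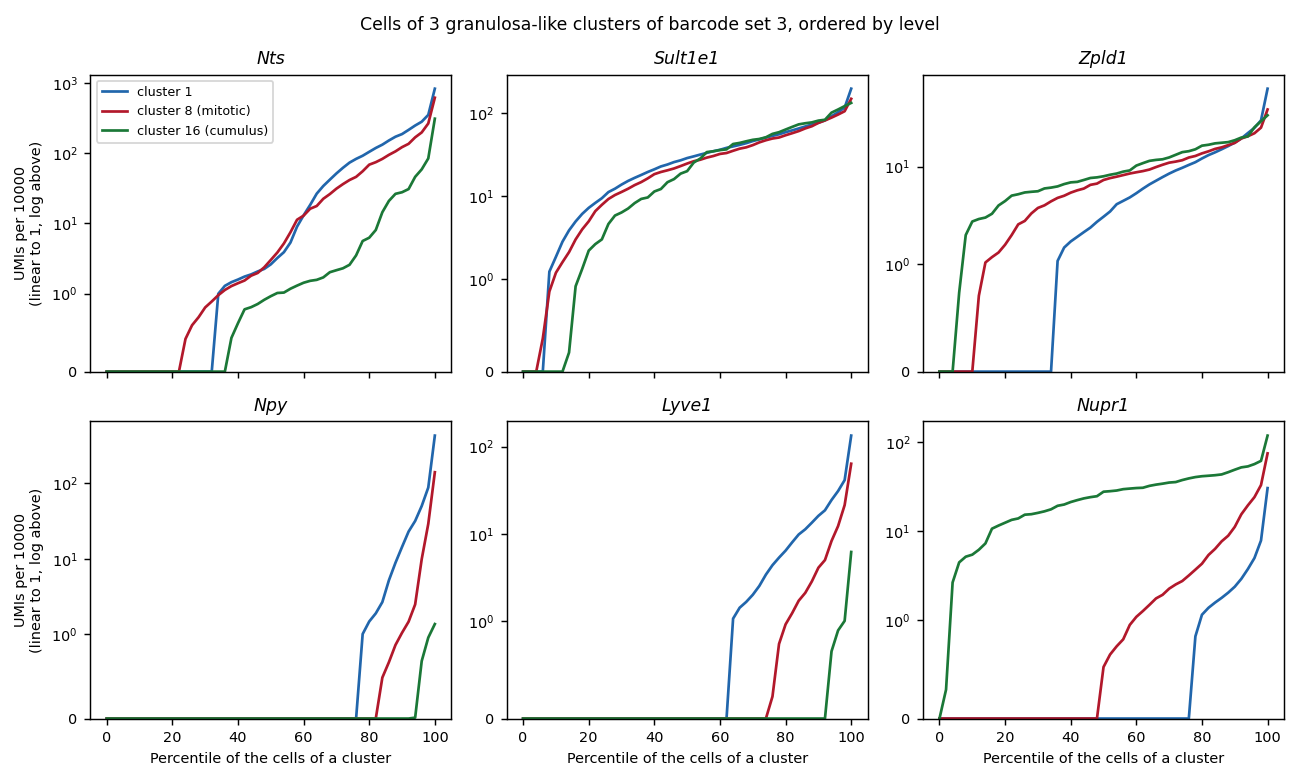
Cells of clusters 1, 8 and 16 of barcode set 3 ordered by their level of each gene (percentile of cells on the horizontal axis, UMIs per 10000 on the vertical axis, linear up to 1 and logarithmic above). Sult1e1 in cluster 16 lies below cluster 1 over the lower percentiles (a median of 19.97 against 28.7) and close to it over the upper ones, Npy and Lyve1 leave 0 only in the upper percentiles, and Nupr1 is high in nearly all cells of cluster 16.

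A cut at 20 UMIs per 10000, chosen after the values were seen, put this in numbers for the whole class. In set 3, 1040 of 5278 granulosa-like cells (19.7%) were at or above it for Nts and held 95.3% of the class's Nts UMIs, and the level of the rest was 1.51. Those 1040 cells were at 40.4 for Sult1e1 and 48.2 for Inha, and at 0.118 for the stromal marker Dcn. For Sult1e1 1704 cells (32.3%) held 89.9% of the UMIs, for Npy 201 cells (3.81%) held 84.1% and for Lyve1 173 cells (3.28%) held 52.7%. In set 2, 142 of 4756 cells (2.99%) held 82.7% of the granulosa-like Nts, and these cells were at 3.88 for Sult1e1 and 89.2 for Inha.

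Finer clusters that held most of cluster 1 of set 3, also made without these genes, differed in them. The largest of its finer clusters (937 cells, 45.8% of cluster 1) was at 10.2 for Npy, 8.71 for Lyve1, 47.3 for Nts, 31.6 for Sult1e1, 4.28 for Zpld1 and 0.225 for Nupr1. The next (717 cells, of which 707 belong to cluster 1) was lower in Npy at 3.20 and Lyve1 at 1.48, and higher in Nts at 69.7, Sult1e1 at 47.1, Zpld1 at 10.4 and Nupr1 at 1.68. Star, which delivers cholesterol to the mitochondrion for steroid synthesis, was at 21.4 in the first and 12.9 in the second, and the matrix gene Comp at 2.85 and 0.442. The remaining finer cluster (495 cells, of which 376 belong to cluster 1) was at 37.6 for Nts, 18.3 for Sult1e1 and 2.83 for Npy. Npy and Lyve1 were thus concentrated together in the first of these groups of GCs, and Nts, Sult1e1 and Zpld1 were highest in the second.

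Detection of pairs of genes was counted in 4925 granulosa-like cells of set 3, each thinned to 3000 UMIs, and set beside the product of the 2 shares. Cells with both Npy and Lyve1 numbered 171 against 72.6 given by the product, 2.36-fold. Nts and Sult1e1 were found together in 1457 cells against 1081, 1.35-fold. In all, 11 of 15 pairs were above the product, and the 4 below it each included Nupr1, with Lyve1 at 0.362, Npy at 0.478, Sult1e1 at 0.803 and Nts at 0.818. Much of this lay between clusters. Within the 1985 thinned cells of cluster 1, Nts and Sult1e1 were at 1.03, but Npy and Lyve1 were still at 1.32, Zpld1 and Nupr1 at 1.30 and Nts and Zpld1 at 1.17, and Nupr1 was still at 0.532 with Npy and 0.564 with Lyve1. The pairs of Nts and Zpld1 with Lyve1 went from 1.33 and 1.23 over the class to 0.933 and 0.914 within cluster 1, and those with Npy from 1.36 and 1.29 to 0.972 and 0.980.

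**Figure D4:**
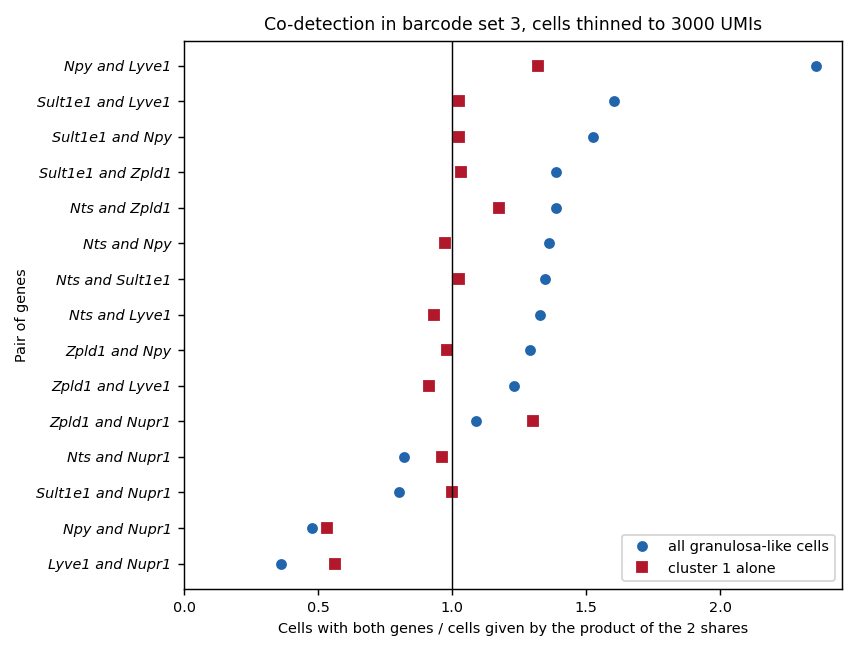
Number of cells with both genes of a pair over the number given by the product of the 2 shares, in barcode set 3 after thinning to 3000 UMIs. Circles are all 4925 granulosa-like cells and squares the 1985 of cluster 1. Npy with Lyve1 lies above 1 in both, and Nupr1 with Npy or Lyve1 lies below 1 in both.

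Outside the GCs, a UMI can also come from free RNA that enters droplets. Shares of cells with a UMI were compared after thinning, which evens depth and does not remove free RNA. In set 3 Nts was found in 39.8% (38.4 to 41.1) of granulosa-like cells, and in 23.1% of endothelial-like, 21.6% of stroma-like, 21.2% of smooth muscle-like, 20.7% of theca-like and 17.0% of myeloid-like cells. Sult1e1 was found in 55.2% (53.8 to 56.6) of granulosa-like cells and in 11.8% to 18.0% of those 5 classes. Zpld1 was found in 41.6% of granulosa-like cells and in 2.05% to 5% of those classes, and Npy in 9.81% and in 0% to 2.54%. Lyve1 was found in 15.03% of granulosa-like cells, 17.0% of myeloid-like cells and 1.58% to 6.62% of the remaining 4. Nupr1 was found in 37.1% of smooth muscle-like, 26.8% of granulosa-like, 25.1% of stroma-like and 6.14% of endothelial-like cells. Endothelial-like cells were taken as the background for Sult1e1, Zpld1 and Npy. Before thinning the shares in granulosa-like and endothelial-like cells were 54.2% and 37.8% for Nts and 62.4% and 24.0% for Sult1e1, at median depths of 6458.5 and 4789 UMIs. In set 1, 0 of 4350 granulosa-like cells had Nts, where 3 cells would give a share of 0.0690%. This does not limit the share of cells that express it. Luteal-like cells of set 3, of which 67 could be thinned, had Nts in 17.9% (9.61 to 29.2). Levels gave another order. The Nts level was 7.56 (6.91 to 8.25) in luteal-like, 2.48 in theca-like, 2.43 in myeloid-like, 2.01 in stroma-like and 1.35 (1.21 to 1.49) in endothelial-like cells, and luteal-like cells also led the classes outside the GCs for Sult1e1 at 2.03 and for Npy at 0.680. The part of free RNA in these levels was not tested. For Nts, endothelial-like cells were not taken as a background. In set 1 endothelial-like cells had 10 Nts UMIs, a level of 0.0158. Lymphatic endothelial-like cells were above it at 0.351 and luteal-like cells near it at 0.0181. The level was 6.12-fold (2.17 to 17.8) that of the next class below. With so few UMIs, neither expression nor its absence is read from the Nts shares of other classes.

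The counts of Nts against Sult1e1 did not keep 1 ratio across classes. Endothelial-like cells of set 3 had 1.52 Nts UMIs for each Sult1e1 UMI (1.28 to 1.80), close to the 1.36 of granulosa-like cells, but theca-like cells had 2.99 (2.74 to 3.26) and stroma-like cells 4.58 (4.32 to 4.85). In the latter 2 classes a few cells carried much of the Nts. Of 4026 stroma-like cells 78 (1.94%) were at 20 or more and held 55.8% of the class's Nts UMIs, and they were at 6.46 for Dcn, 2.21 for Pdgfra, 1.83 for Inha and 1.02 for Sult1e1. Of 722 theca-like cells 17 held 65.2%, and they were at 7.64 for Cyp17a1, 9.39 for Inha and 0.787 for Sult1e1. Their Sult1e1 was thus far below the 40.4 of high-Nts granulosa-like cells. What these cells are was not tested. The unnamed cluster 12 of set 3 (363 cells, median 3366 UMIs, led by the globin gene Hbb-bs) was at 17.4 for Nts and 11.0 for Sult1e1, beside 14.1 and 9.37 over all cells of set 3.

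Over the 59 clusters of at least 50 cells, the genes with the most similar pattern of log2(level + 0.1) were listed for each gene by Pearson's r, as a description over clusters that share libraries. Nts and Sult1e1 were each other's nearest gene at 0.96 over these clusters, in which both were at or below 0.127 UMIs per 10000 in every cluster of set 1. Over the 19 clusters of set 3 alone Sult1e1 was the fourth gene for Nts (0.90), and Nts was not among the 5 nearest to Sult1e1, which Osgin2 led (0.95). Over the 20 clusters of set 2 alone Inhba was nearest to Nts (0.97) and Sult1e1 was the third (0.96). With all sets, Nts was then followed by Ybx1 (0.85), Prkg2 (0.82), Itgb1bp1 (0.81) and Npy (0.79), and Sult1e1 by Asgr1 (0.84), Prkg2, Ybx1 and Npy (0.80). Prkg2, a cyclic GMP-dependent kinase, was also next to Lyve1 at 0.75, after Tmem37 at 0.85 and before Ap2s1 (0.70), Ddx28 (0.68) and Nudt9 (0.68). The nearest to Npy were Myh13 (0.82), Itgb1bp1, Nmu, 9130008F23Rik and Sult1e1 (0.80 each). Nmu is the gene of another secreted peptide, neuromedin U. Zpld1 had other neighbours, Tmsb15b2 (0.94), Serpine2 (0.92), Fst (0.91), Bex4 (0.90) and Tox2 (0.90). Serpine2, a protease inhibitor, and Fst, the activin-binding follistatin, were also among the GC markers that named the clusters. Nupr1 was nearest to Gfpt2 (0.76), of the hexosamine pathway, then Fam110c (0.75), Irak2 (0.72), 6330403K07Rik (0.64) and the cumulus gene Ptx3 (0.62). Zpld1 was at 0.24 with Nts and 0.0095 with Lyve1. These neighbours depend on pooling the sets. None of the 5 of Nupr1 was among its 5 nearest in set 1 or in set 2 alone. The same held for the 5 of Lyve1 in set 1 alone, where Fkbp15 (0.87) and Lyst (0.84) led. Of the 5 of Zpld1, 2 were among its nearest in set 1 alone and 3 in set 3 alone. None was in set 2 alone, where Inhbb (0.98) and Cyp19a1 (0.97) led.

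Lists of genes with known links to each of the 6 were then compared between granulosa-like cells of set 3 and set 1. Of 27 genes for peptide processing and reception 14 could be tested, of which 4 were higher and 2 lower, with a median of 0.09 (log2). Over all genes tested, 8.03% were higher and 11.1% lower. Proprotein convertases cut precursors such as those of Nts and Npy. Among their genes, Pcsk5 was at 1.81 against 0.225 (8.03-fold), Furin at 1.07 against 0.305 (3.52-fold) and Pcsk6 at 2.43-fold. Pcsk1 had 1 UMI in granulosa-like cells of set 1 and 0 in those of set 3. In set 3 Pcsk5 was higher in all other cells, at 3.30, than in granulosa-like cells. The granule protein gene Chgb was at 0.165 against 0.00974 (16.9-fold). Carboxypeptidase E (Cpe), which trims the cut peptides, was at 4.98 against 8.52, and the amidating enzyme Pam at 0.538 against 0.366, and neither was called. The chaperone gene Scg5 (0.427) and the peptidase gene Mme (0.346) were lower. The neurotensin receptor Ntsr2 had 28, 17 and 28 UMIs in the 3 sets, and Ntsr1 was not analysed here. Sort1, a sorting receptor that also binds neurotensin, was at 0.167 and 0.137 in granulosa-like cells of sets 1 and 3. The neuropeptide Y receptor Npy1r was at 0.106 in theca-like and 0.116 in smooth muscle-like cells of set 3 and at 0.00533 in granulosa-like cells, and at 0.0724 and 0.196 in the first 2 classes of set 1.

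The list around Sult1e1 had fewer genes higher than lower. Of 29 genes for sulfation, synthesis and reception of estrogen 17 could be tested, 1 was higher and 4 were lower, with a median of -0.56, beside 8.03% and 11.1% of all genes. Cyp19a1, which makes estrogen, was at 0.0769 against 2.11 and Hsd17b1, which makes the active estradiol, at 1.02 against 7.90. The estrogen receptor genes Esr2 and Esr1 were at 0.402 against 1.21 and 0.0332 against 0.0868. The enzymes that make the sulfate donor PAPS were not called, Papss1 at 0.506 against 0.644 and Papss2 at 0.431 against 0.358. The gene called higher was Hsd17b11, a dehydrogenase of lipid droplets, at 3.02-fold. In set 3 the granulosa-like class thus had a high mean Sult1e1 level and a mean Cyp19a1 level at 0.0365 of that in set 1. These are class means, and Sult1e1 was at 33.4 in its cumulus and 0.479 in its preantral cells. With the 3 sets clustered together, 58.3% of this class kept its name. Whether single cells hold both features was not tested.

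Around Lyve1, 11 of 24 genes of the hyaluronan matrix and its receptors could be tested, 6 were higher and 1 lower, with a median of 1.05, again beside 8.03% and 11.1% of all genes. Versican (Vcan), a proteoglycan that binds hyaluronan, was at 25.7 against 3.84 and the hyaluronan receptor Cd44 at 0.0577 against 0.00591. Ptx3 and Tnfaip6, which crosslink the cumulus matrix, were at 193-fold and 201-fold. Itih5, of the heavy chains that are joined to hyaluronan, was lower at 0.378 against 3.40. Cd44 was highest outside the GCs, at 3.87 in myeloid-like cells of set 3 and 1.12 in those of set 1. Of 13 other genes with a zona pellucida domain, the list for Zpld1, 1 could be tested. It was Tgfbr3, the betaglycan gene, at 0.241 against 0.480, and was not called.

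Around Nupr1, 18 of 23 genes of the integrated stress response could be tested, 9 were higher and 1 lower, with a median of 0.94, where 8.03% of all genes were higher and 11.1% lower. Atf5 was at 3.19-fold, Psat1 and Phgdh of serine synthesis at 3.56-fold and 2.49-fold, and the cystine transporter gene Slc7a11 at 25.5-fold. Atf4 itself was at 2.81 against 1.68 and Ddit3, which encodes CHOP, at 0.439 against 0.449, and neither was called. Herpud1, a gene of protein degradation at the endoplasmic reticulum, was lower at 0.495. Of 26 genes known to respond to LH in GCs 23 could be tested, 17 were higher and 5 lower, with a median of 2.74, against the same shares of all genes. Star was at 7.39 against 0.0511 (145-fold), Sfrp4 at 72.8-fold and Runx2 at 58.5-fold, and Lhcgr, Fshr and Nr5a2 were at 0.254, 0.306 and 0.283. Beside these, Nts, Sult1e1, Npy and Lyve1 differed more between granulosa-like cells of these 2 sets than any gene tested of the 6 lists in these clusters. These 4 genes were picked for cluster levels in set 3, so this order describes the choice. The list genes were not run at resolution 0.5, where Lyve1 was at 28.3-fold.

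**Figure D5:**
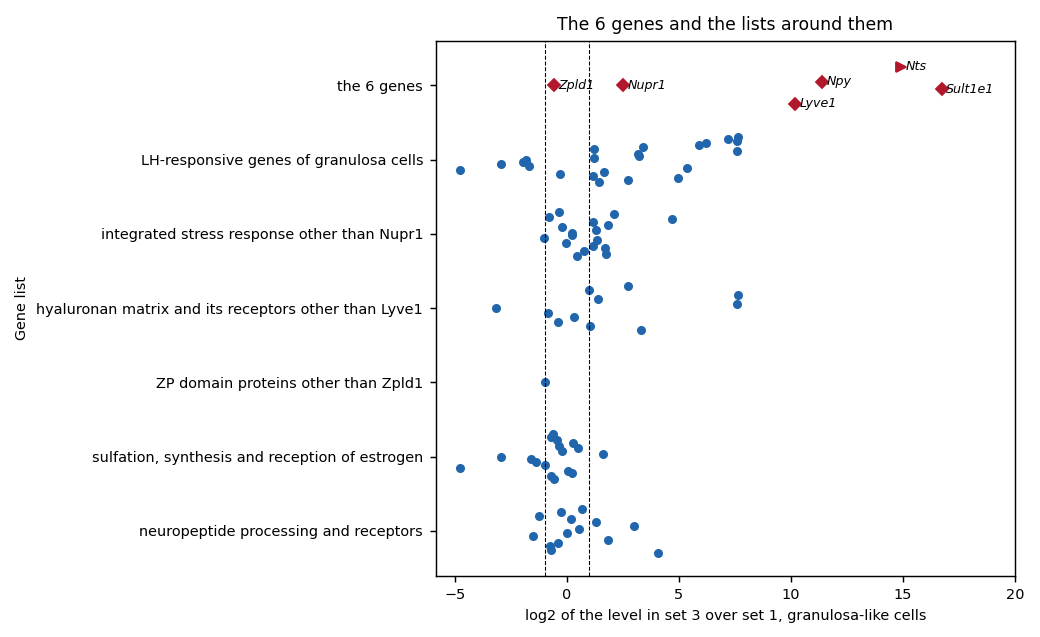
log2 of the level in granulosa-like cells of barcode set 3 over set 1 for the 6 genes (red) and for the genes of 6 lists (blue). Levels under 3 UMIs on the set 1 side are raised to 3 UMIs for the list genes. Nts is drawn as a bound with set 1 put at 3 UMIs, and Sult1e1 against its single UMI. Dashed lines are at 2-fold. Nts, Sult1e1, Npy and Lyve1 lie at 10.19 or above and the estrogen list lies mostly below 0.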

How the data were processed

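Ovaries were profiled by 10x Genomics scRNA-seq, and the submitters' processing notes name Cell Ranger, Seurat and mm10. The authors deposited 1 table of natural log values, ln(1 + UMIs per 10000), of 31776 cells. UMIs were worked back from these values, and all 80167176 values above 0 came out whole within 0.01 (240030587 UMIs). Each set was clustered with scanpy 1.11.5 and python-igraph 0.11.9 (2000 variable genes, 30 components, 15 neighbours, resolution 1). A cluster was granulosa-like with 6 of 15 markers at 4-fold or more over non-follicular cells and at 0.25 or more, or with 4 for atretic GCs. Other classes needed a marker score of 0.4, or of 0.3 with 2 leading markers. These naming limits were set after the clusters were seen. Scrublet marked 39 cells (0.123%), too few to have worked, so no cells were left out. Levels carry exact Poisson, ratios exact conditional binomial and shares exact Clopper-Pearson intervals (scipy 1.17.1). A gene was tested at a level of 0.05 or more in either group.

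The 6 genes and the lists were chosen with earlier results of these data known. Named were the 6 genes, the 5 genes of nearest pattern, and in each list the direct partners, the genes of largest fold in set 3 against both other sets (all cells for set 2), and those of small counts. With 1 library per time point, and no source that ties a barcode ending to a library, no test was run. Scripts were tested on simulated data. Alternatives were the scaling, depth, doublets, clustering, per-cell gates and thresholds.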

Additional observations from a re-analysis of the deposited data

Results flagged for a closer look

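Lyve1 and Nupr1 differed between barcode sets 1 and 3 in the side of the ratio of granulosa-like to all other cells. For Lyve1 the ratio was 0.0159 in set 1 and 12.9 in set 3, and for Nupr1 it was 0.807 and 1.67. For both genes the ratio was thus below 1 in set 1 and above 1 in set 3. By the 2-fold rule only Lyve1 was called, lower in set 1 and higher in set 3. With each set taken as 1 library the difference was not tested. Within set 2 the ratios were 0.0240 for Lyve1 and 0.749 for Nupr1, and they are not compared with the others because of cluster 3 of that set.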

How the results depend on the processing

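With each set taken as 1 library, no replicate could be left out. No paired analysis was possible because each time point has 1 library and no result comes from a test. Of the alternative values for counts of genes, 33 stayed within 1.5 times the reported count and 7 did not. In all, 5 of the 6 genes had their highest class in set 3 in granulosa-like cells, but 1 did with clusters of the 3 sets together, where 58.3% of the granulosa-like cells of set 3 stayed so named. A total of 3 genes had at least 2 times the share of cells of every non-follicular class, and 1 did with per-cell gates. Of the 30 nearest-pattern genes, 19 were shared with a pseudocount of 1, 2 of 15 in set 1 alone, 3 of 25 in set 2 alone and 11 of 30 in set 3 alone. Of the 50 list genes called, 32 were with a minimum level of 0.5, which also leaves fewer list genes to test. For the LH-responsive list 17 were tested in place of 23. The cause of the other shifts was not tested. Of the ratios of single genes, 75 stayed within 1.5 times, 21 did not and none crossed 1. Lyve1 in set 3 over set 1 ranged from 16.5 (all cells) to 2652 (cells of the top 8% of doublet scores left out) and 6304 (gates). It was 28.3 at resolution 0.5, where the set 1 class took in other cells. Granulosa-like over other cells in set 3 fell with per-cell gates to 5.48 for Nts, 6.86 for Sult1e1, 13.5 for Zpld1, 5.53 for Npy and 4.26 for Lyve1, and Npy was at 10.8 at resolution 2. Leaving the unnamed clusters out of the other cells raised it to 32.4 for Sult1e1, 33.7 for Zpld1 and 29.1 for Npy. Nupr1 in set 3 over set 1 was 9.24 with gates. Leaving out cells of shared barcode sequences or the unnamed clusters was chosen after seeing the data.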

Other observations

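In set 1, where granulosa-like cells had no Nts, the class with the highest Nts level was the lymphatic endothelial-like cluster. It was at 0.351 (0.208 to 0.554), from 18 UMIs over 42 cells, and the corresponding cluster of set 2 was at 0.336 (0.184 to 0.564), from 14 UMIs over 29 cells. The next class of set 1, the luteal-like cells, was at 0.0181. Lyve1 was also highest in these 2 clusters, at 7.41 and 7.20, whereas Sult1e1 had no UMI in that of set 1.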
